A study of Mus musculus with 17 samples.

Results

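The effect of the genotype label after nerve injury was measured in 3 libraries of the group CCI_KO against 5 of the group CCI_WT, 8 of the 17 RNA sequencing libraries of the study, as knockout minus wild type over all expressed genes. The CCI_KO mice are labelled as Twik1 knockouts (Twik1 is the protein of the gene Kcnk1) and had a chronic constriction injury (CCI), in which ligatures are tied loosely around the sciatic nerve. The CCI_WT mice were wild type with the same injury. A side comparison uses the 4 Sham_KO and 5 Sham_WT libraries, which were labelled knockout and wild type after a sham operation. All libraries came from lumbar dorsal root ganglia L4 to L6, and each has the label day 30. The strain, the age, the sex and the deleted part of the gene are not stated. The hour of collection and any pooling of mice are not stated either. Nothing in the labels ties a library to its own animal, so the p-values speak of the spread between samples, which may be partly technical.

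Dorsal root ganglia hold the cell bodies of the sensory neurons, each wrapped in satellite glia, together with axons wrapped by Schwann cells, which lay down myelin. Schwann cells and fibroblasts deposit extracellular matrix, in which type IV collagen, laminins and nidogens form the basement membrane and fibrillar collagens form fibres. Twik1 is a two-pore-domain potassium channel, a family that carries background potassium current, and CCI is a model of neuropathic pain in which injured neurons switch on a programme of injury genes.

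Gene counts per library were 55.8 to 70.4 M (M, mega) in CCI_KO and 52.5 to 65.7 M in CCI_WT, and mitochondrial genes took 0.497 to 0.605% of them. Expression is in CPM, the counts of a gene for each M counts of its TMM-scaled library. Markers of the labelled tissue were present in all 8 libraries, with the sensory neuron genes Avil at 844 to 1000 CPM and Prph at 1860 to 2080 CPM, the satellite glia gene Fabp7 at 371 to 538 CPM and the Schwann cell gene Pmp22 at 2950 to 7280 CPM. The spinal cord markers Mog (at most 0.298 CPM), Chat (at most 0.031 CPM) and Slc6a5 (at most 0.127 CPM) were at or near 0. A further spinal cord marker, Aqp4, was present, at 7.03 to 11.5 CPM in CCI_KO and 4.08 to 6.29 CPM in CCI_WT, without overlap. The Y-linked gene Ddx3y lay at 52.5 to 61.4 CPM in these libraries and Xist at 0 to 0.278 CPM. Sham_KO libraries 1 and 2 stood apart from Sham_KO libraries 3 and 4, with summed levels of the axon injury genes of 7403 and 6983 CPM against 4981 and 4943 CPM, so the sham comparison is also given without them. Sham_KO library 4 stood apart in the summed levels of red blood cell (1920 CPM) and neutrophil genes (1815 CPM), and Sham_KO library 3 in that of muscle genes (1209 CPM). A number in the deposited table names differs between CCI_KO and CCI_WT. If it marks a batch, which no label says, batch and genotype cannot be told apart here.

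Transcripts of the targeted gene were lower but not absent in the libraries labelled knockout. Kcnk1 (ENSMUSG00000033998, chromosome 8, 126721842 to 126757440, plus strand; GRCm39) had 78.3, 89 and 84.5 CPM in CCI_KO libraries 2, 3 and 4, against 119, 108, 121, 106 and 118 CPM in CCI_WT libraries 1 to 5. All 3 CCI_KO libraries lay below all 5 CCI_WT libraries, at means of 83.9 ± 5.36 CPM in CCI_KO and 114 ± 6.83 CPM in CCI_WT (SD, n = 3 and 5). The log2 fold change, here and below CCI_KO minus CCI_WT with the standard error (SE) of the fit, was −0.45 ± 0.13, and edgeR's quasi-likelihood test did not call it (Benjamini-Hochberg adjusted p = 0.2). An exact permutation test over the 8 libraries, two-sided, gave p = 0.0179, the smallest that its 56 splits allow. With the 8 CCI libraries fitted alone the edgeR adjusted p was 0.00186, with no low-count filter it was 0.0092, by DESeq2 0.0166 and by limma-voom 0.0267. It was above 0.05 with DESeq2 size factors (0.215), a stricter filter (0.158), a block for the replicate number (0.396) and without Sham_KO libraries 1 and 2 (0.0805). When any of the 8 CCI libraries was left out it lay between 0.285 and 0.585. Among the fits that left out a sham library it was 0.043 without Sham_KO library 4 and 0.048 without Sham_WT library 3. In the other fits of that kind it lay between 0.16 and 0.261. Counts over all exons cannot check a deletion whose position is not given. Of 173 tested genes within 10 Mb of Kcnk1, itself included, edgeR called 0 after CCI, beside 0.684% of all tested genes. The groups did not overlap in 12 of them (6.94%), beside 8.52% of all tested genes.

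After CCI, 164 of 23972 tested genes (0.684%) passed an edgeR adjusted p of 0.05, with 44 (0.184%) higher and 120 (0.501%) lower in CCI_KO. The lower genes include 14 of 30 tested peripheral myelin genes and 9 of 43 tested collagen chains, and the higher genes include 2 of 20 tested clock genes. Most changes were small, since 5 of the higher and 25 of the lower genes changed by at least 2-fold, and the median log2 fold change was 0.44 among the higher and −0.57 among the lower genes. The libraries of both groups did not overlap for 44 of the higher and 118 of the lower genes, against 4.15% and 4.37% of all tested genes that separate the groups upward and downward. An unadjusted p under 0.05 was found for 2104 genes. Of the 164, 158 are protein coding.

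**Figure D1:**
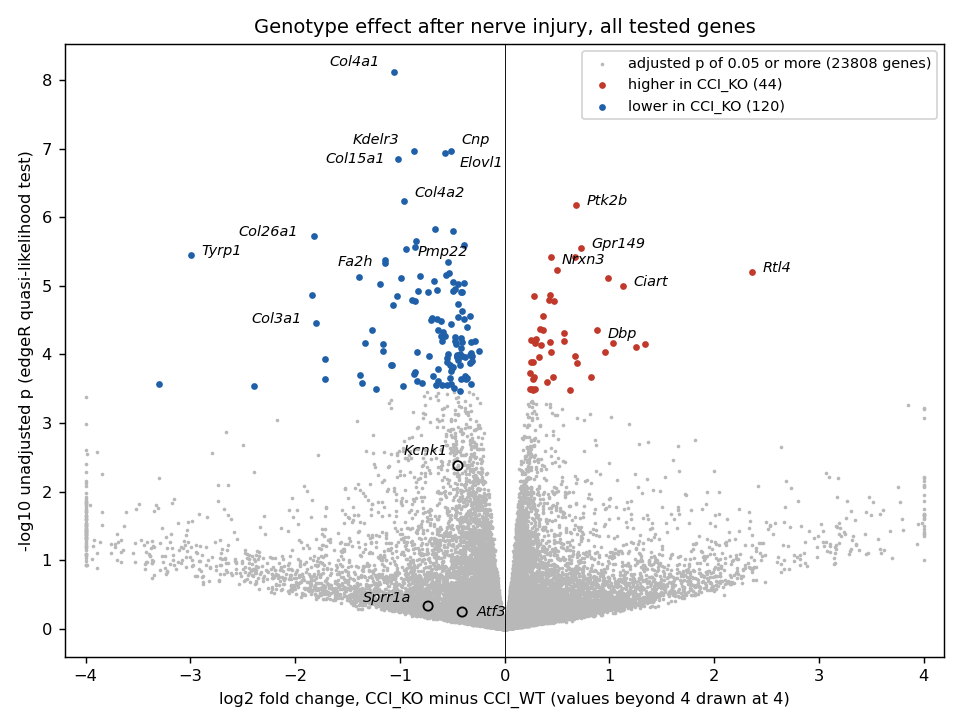
Log2 fold change (CCI_KO minus CCI_WT, horizontal) and −log10 unadjusted p of the edgeR quasi-likelihood test (vertical) for 23972 genes, with the 44 genes called higher in CCI_KO in red and the 120 called lower in blue. Blue points reach higher and further from 0 than red ones, Col4a1 has the smallest p, and the ringed genes Kcnk1, Atf3 and Sprr1a were not called. Values beyond the horizontal axis are drawn at its edge.

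Type IV collagen and other basement membrane genes fell in CCI_KO ganglia. Col4a1 (ENSMUSG00000031502, chromosome 8, 11248423 to 11362826, minus strand; GRCm39), a chain of the type IV collagen network, had 57.8, 47.1 and 64.1 CPM in CCI_KO libraries 2, 3 and 4, against 114, 105, 111, 120.4 and 136 CPM in CCI_WT libraries 1 to 5. The highest CCI_KO library lay well below the lowest CCI_WT library, and the log2 fold change was −1.06 ± 0.11 (edgeR adjusted p = 0.000182), the smallest p of all tested genes. Its partner chain Col4a2 (ENSMUSG00000031503, chromosome 8, 11362471 to 11499287, plus strand) had 36.3, 28.2 and 40.8 CPM in the CCI_KO libraries, against 65.6, 62.1, 67.8, 63.5 and 83.8 CPM in the CCI_WT libraries. Again the groups did not overlap (log2 fold change −0.96 ± 0.13, edgeR adjusted p = 0.00229). The genes lie head to head and their annotated 5′ ends overlap, so unstranded reads from that stretch cannot be assigned to either one. Since the samples are whole ganglia, fewer cells of a type and less RNA per cell cannot be told apart in this and all following results.

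The sequence around the starts of this head-to-head pair is shown because both chains fell by nearly the same factor. The RefSeq windows of 250 bases before to 50 after each start (build GRCm38.p6) place the start of Col4a1 at base 11312826 and that of Col4a2 at base 11312805 of chromosome 8, so that the 5′ ends overlap by 22 bases and the windows share 78 bases. Capitals mark CCAAT and GGGCGG, letters of the CCAAT box and the GC box, on either strand. The windows are at chr8:11312777-11313076 (minus strand) and chr8:11312555-11312854 (plus strand):
Col4a1: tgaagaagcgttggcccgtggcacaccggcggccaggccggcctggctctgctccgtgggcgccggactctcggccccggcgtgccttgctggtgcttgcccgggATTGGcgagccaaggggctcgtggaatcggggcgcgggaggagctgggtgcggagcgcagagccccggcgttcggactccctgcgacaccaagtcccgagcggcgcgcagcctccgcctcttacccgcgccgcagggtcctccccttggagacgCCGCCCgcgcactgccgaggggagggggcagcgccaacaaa
Col4a2: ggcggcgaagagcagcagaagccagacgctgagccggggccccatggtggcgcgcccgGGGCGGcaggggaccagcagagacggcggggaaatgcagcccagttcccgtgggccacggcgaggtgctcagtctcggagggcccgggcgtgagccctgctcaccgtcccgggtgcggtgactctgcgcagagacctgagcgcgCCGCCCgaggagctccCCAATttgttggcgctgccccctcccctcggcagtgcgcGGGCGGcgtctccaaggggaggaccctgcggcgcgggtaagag
Of 32851 such windows, 37.4% hold CCAAT and 35.7% hold GGGCGG, and the matches are a description only.

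Other basement membrane genes moved the same way. The nidogens, which link laminin to type IV collagen, fell by similar factors. Nid1 had 70.3, 50.5 and 66.4 CPM in the CCI_KO libraries, against 114, 107, 91.9, 108 and 142 CPM in the CCI_WT libraries, a log2 fold change of −0.85 ± 0.12, edgeR adjusted p = 0.00462. Nid2 (log2 fold change −0.85 ± 0.14, edgeR adjusted p = 0.00462) ranged over 24.9 to 30.6 CPM in CCI_KO and 41.4 to 56.8 CPM in CCI_WT. Neither nidogen overlapped between the groups. The laminin chains Lamb1 and Lamc1 fell, by log2 fold changes of −0.56 ± 0.10 and −0.59 ± 0.12 (edgeR adjusted p = 0.00641 and 0.016). The chains Lama2, Lama4 and Lamb2 missed the threshold at −0.74, −0.47 and −0.41 (edgeR adjusted p = 0.0504 to 0.384). Laminin chains and nidogens were taken as a family by symbol after their values were seen. Of 13 tested, 4 fell, 0 rose and 9 were not called, with a median log2 fold change of −0.53 against −0.0071 over all tested genes. Their summed level was 244 to 308 CPM in CCI_KO libraries, against 381 to 528 CPM in CCI_WT libraries, without overlap. Dag1, the laminin receptor dystroglycan, had 212, 172 and 195 CPM in the CCI_KO libraries, against 269, 256, 232, 295 and 308 CPM in the CCI_WT libraries and fell by a smaller factor (log2 fold change −0.49 ± 0.08, edgeR adjusted p = 0.00425). Col15a1, a collagen of the basement membrane zone, ranged over 6.36 to 7.43 CPM in CCI_KO and 12.4 to 17.2 CPM in CCI_WT (log2 fold change −1.02 ± 0.14, edgeR adjusted p = 0.000689).

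Fibrillar collagen chains and their cross-linking enzyme fell as well. Col3a1, the main chain of type III collagen, had 55.7, 53.6 and 64 CPM in the CCI_KO libraries, against 188, 181, 145, 194 and 297 CPM in the CCI_WT libraries. The CCI_KO values were close together, CCI_WT library 5 was the highest of the wild-type libraries, and the log2 fold change was −1.80 ± 0.29, edgeR adjusted p = 0.0134. Col5a1, a type V chain, had 13.5, 15.9 and 15.3 CPM in the CCI_KO libraries, against 31.4, 37.8, 22.5, 36.6 and 42.2 CPM in the CCI_WT libraries (log2 fold change −1.19 ± 0.19, edgeR adjusted p = 0.00668). Lox, lysyl oxidase, which cross-links collagen fibres, had 8.69, 8.97 and 12.5 CPM in the CCI_KO libraries, against 30.4, 18.7, 21.2, 26.8 and 30 CPM in the CCI_WT libraries (log2 fold change −1.34 ± 0.25, edgeR adjusted p = 0.0187). Col1a1 and Col1a2, the chains of type I collagen, did not overlap between the groups either, with 53.8 to 62.4 CPM in CCI_KO and 141 to 297 CPM in CCI_WT for Col1a1. Their log2 fold changes of −1.72 ± 0.67 and −1.32 ± 0.36 were not called (edgeR adjusted p = 0.431 and 0.157). Col26a1, a minor collagen, had 1.35, 1.16 and 0.808 CPM in the CCI_KO libraries, against 4.18, 4, 2.61, 3.98 and 4.66 CPM in the CCI_WT libraries and fell at low counts (log2 fold change −1.82 ± 0.29, edgeR adjusted p = 0.0045).

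In all, 9 of 43 tested collagen chains fell, 0 rose and 34 were not called, with a median log2 fold change of −0.54; this family, too, was taken by symbol after its values were seen. The other called chains were Col5a3 (−0.53), Col28a1 (−0.48) and Col23a1 (−0.41). Summed over the chains, the level was 611 to 739 CPM in CCI_KO libraries, against 1094 to 1800 CPM in CCI_WT libraries. Of the 35 tested fibroblast and matrix genes, 7 fell, 0 rose and 28 were not called, and 34 of the 35 log2 fold changes were negative (median −0.62). DESeq2 called 12 of them and limma-voom 10. Their summed level did not overlap, at 2815 to 2994 CPM in CCI_KO libraries, against 3619 to 6185 CPM in CCI_WT libraries. Sparc, a collagen-binding matrix protein, fell among them to 1219, 1030 and 1096 CPM in CCI_KO, against 1813, 1669, 1537, 1738 and 2322 CPM in CCI_WT (log2 fold change −0.70 ± 0.12, edgeR adjusted p = 0.0127). Postn, periostin, overlapped between the groups (52.3 to 56.7 CPM in CCI_KO and 54.4 to 103 CPM in CCI_WT) and was not called (edgeR adjusted p = 0.199).

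Skeletal muscle transcripts, which a dissection can carry along, differed by genotype label after CCI in their summed level. The summed level of 11 tested muscle genes was 189 to 330.1 CPM in CCI_KO libraries, against 14.5 to 131 CPM in CCI_WT libraries, without overlap, but 0 of the 11 were called (median log2 fold change 1.51). Acta1, the muscle actin, lay at 74.6 to 96.9 CPM in CCI_KO and 3.27 to 37.9 CPM in CCI_WT, and Tnnc2 was at 0 in all 8 libraries. Their summed level separated the same libraries as the called genes do, both the higher and the lower ones, and their part in those results was not tested. In sham the summed level overlapped, at 9.05 to 1209 CPM in Sham_KO libraries and 6.09 to 266 CPM in Sham_WT libraries. At an unadjusted p under 0.05 there were 0 of the 11, and DESeq2 and limma-voom called 0.

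Some called genes that take part in collagen synthesis in the secretory pathway are given here, chosen after their values were seen, with no count of such genes behind them. Kdelr3, a receptor that returns chaperones to the endoplasmic reticulum, had 13.6, 12.6 and 13 CPM in the CCI_KO libraries, against 22.1, 21.6, 22.1, 25.1 and 28.4 CPM in the CCI_WT libraries (log2 fold change −0.87 ± 0.12, edgeR adjusted p = 0.000689). Serpinh1, the collagen chaperone HSP47, had 85.8, 81 and 113 CPM in the CCI_KO libraries, against 201, 167, 168, 196 and 246 CPM in the CCI_WT libraries, a log2 fold change of −1.07 ± 0.17, edgeR adjusted p = 0.00864. In both genes all CCI_KO libraries were below all CCI_WT libraries. The lysyl hydroxylase Plod1 (−0.48) and the prolyl isomerase Fkbp10 (−0.51), which modify and fold collagen, fell as well (edgeR adjusted p = 0.0187 and 0.033). So did peroxidasin, Pxdn (−0.54), which cross-links type IV collagen, the membrane protease Mmp14 (−0.50) and the microfibril protein Mfap5 (−0.97), with edgeR adjusted p = 0.0233 to 0.0438. The 25 tested genes of endoplasmic reticulum and heat stress had 0 calls by edgeR, DESeq2 or limma-voom (2 at an unadjusted p under 0.05) and a median of −0.0077.

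Myelin genes formed the other large group that fell. Pmp22 (ENSMUSG00000018217, chromosome 11, 63019718 to 63050600, plus strand; GRCm39), a membrane protein of compact myelin, had 3417, 2949 and 3026 CPM in CCI_KO libraries 2, 3 and 4, against 6482, 5372, 5637, 5213 and 7278 CPM in CCI_WT libraries 1 to 5. The highest CCI_KO library was far below the lowest CCI_WT library, and the log2 fold change was −0.94 ± 0.13, edgeR adjusted p = 0.00462. Cnp, a nucleotide phosphodiesterase of myelin, changed less but with a smaller p: its libraries held 389.6, 340.4 and 366 CPM in CCI_KO, against 537, 528, 494, 496 and 559.8 CPM in CCI_WT (log2 fold change −0.52 ± 0.07, edgeR adjusted p = 0.000689).

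Of 30 tested peripheral myelin genes, 14 fell, 0 rose and 16 were not called, and 27 of the 30 had a negative log2 fold change. In 22 of the 30 CCI_KO lay lower without overlap, beside 4.37% of all tested genes. In 1 it lay higher without overlap, beside 4.15% of all tested genes. The median was −0.53 and the summed level was 7964 to 9626 CPM in CCI_KO libraries, against 13840 to 18050 CPM in CCI_WT libraries. Among the 14 were Mal, a proteolipid of compact myelin (243 to 284 CPM in CCI_KO and 364 to 471 CPM in CCI_WT; log2 fold change −0.64 ± 0.11, edgeR adjusted p = 0.00713), and the connexin Gjb1 of uncompacted myelin (14 to 14.9 CPM in CCI_KO and 20.7 to 29.7 CPM in CCI_WT; −0.80 ± 0.14, edgeR adjusted p = 0.00641). Mag, the myelin-associated glycoprotein, ranged over 19.4 to 27.1 CPM in CCI_KO and 33.7 to 43.2 CPM in CCI_WT (−0.72 ± 0.15, edgeR adjusted p = 0.0233). The myelin membrane proteins Ncmap (−0.46) and Pllp (−0.79), the connexin Gjc3 (−0.64) and the Schwann cell signal Dhh (−0.42) fell as well, with edgeR adjusted p = 0.0154 to 0.0425. Mbp, myelin basic protein, ranged over 997 to 1296 CPM in CCI_KO and 1454 to 2019.9 CPM in CCI_WT without overlap, but was not called (−0.61 ± 0.18, edgeR adjusted p = 0.201). The same holds for periaxin, Prx (−0.54 ± 0.17, edgeR adjusted p = 0.267). Smpd3, a sphingomyelinase, lay on the other side of 0 and was not called (0.45 ± 0.12, edgeR adjusted p = 0.0795).

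Enzymes of the lipids that fill myelin were called at each of several steps. Ugt8a, which makes galactosylceramide, had 70.02, 40.2 and 51.6 CPM in the CCI_KO libraries, against 149, 109, 113, 117 and 163 CPM in the CCI_WT libraries, a log2 fold change of −1.27 ± 0.21, edgeR adjusted p = 0.0154. Fa2h, which hydroxylates the fatty acids of these lipids, had 60.5, 43.4 and 44.2 CPM in the CCI_KO libraries, against 110.5, 94.6, 103, 103 and 135 CPM in the CCI_WT libraries (−1.15 ± 0.16, edgeR adjusted p = 0.00523). Gal3st1, which turns galactosylceramide into sulfatide, ranged over 29.4 to 36.5 CPM in CCI_KO and 43.7 to 53.4 CPM in CCI_WT (−0.54 ± 0.09, edgeR adjusted p = 0.00523). The fatty acid elongase Elovl1 (−0.57 ± 0.08, edgeR adjusted p = 0.000689) and the ceramide synthase Cers2 (−0.40 ± 0.08, edgeR adjusted p = 0.0104), both used for very long chains, fell without overlap. Both were chosen after their values were seen. Of 32 tested cholesterol and fatty acid synthesis genes, 1 fell, the elongase Elovl6 (−0.33 ± 0.07, edgeR adjusted p = 0.027), 0 rose and 31 were not called. DESeq2 called 2 and limma-voom 3, and 12 had an unadjusted p under 0.05. Of the 32, 27 had a negative log2 fold change (median −0.13). In 10 CCI_KO lay lower without overlap, beside 4.37% of all tested genes. The summed level did not overlap, at 8402 to 9083 CPM in CCI_KO libraries, against 9204 to 9505 CPM in CCI_WT libraries. The cholesterol enzyme Cyp51 had a log2 fold change of −0.25 ± 0.07 and was not called (edgeR adjusted p = 0.127).

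**Figure D2:**
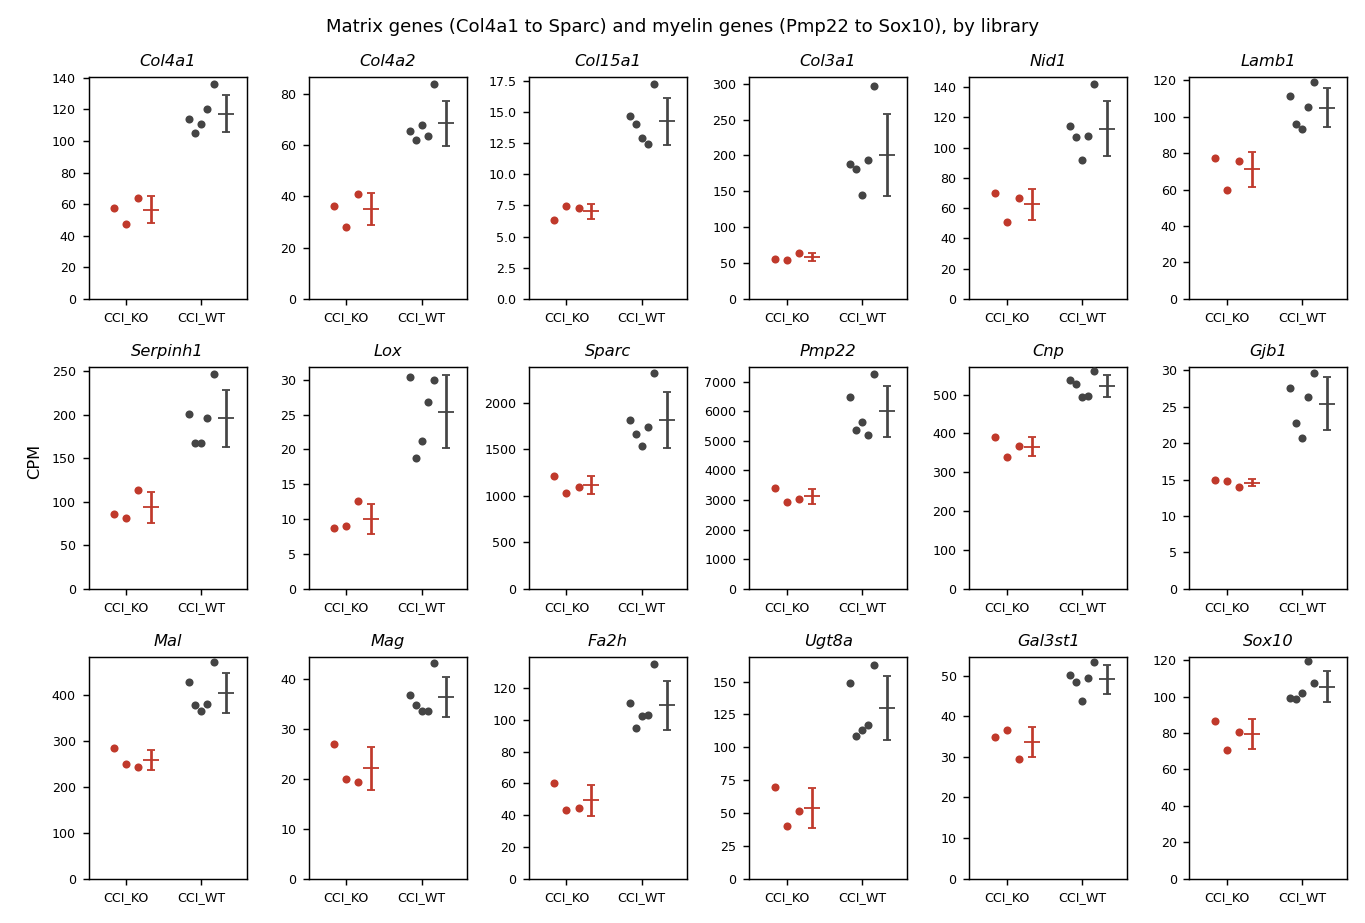
CPM of 18 matrix and myelin genes in each library, with CCI_KO (3 points, red) left of CCI_WT (5 points, dark) in every panel and the mean ± SD beside the points. In all 18 panels the CCI_KO libraries lie below the CCI_WT libraries, with means of 10.1 CPM in CCI_KO and 25.4 CPM in CCI_WT for Lox, and of 3131 ± 251 CPM in CCI_KO and 5997 ± 868 CPM in CCI_WT for Pmp22.

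Of the genes that mark Schwann cells as such, rather than their myelin, 1 was called. In the list of Schwann cell identity and repair, with 29 tested, 1 fell, 0 rose and 28 were not called, with a median of −0.24. Of the 29, 23 had a negative log2 fold change and 9 an unadjusted p under 0.05, while DESeq2 and limma-voom called 1 each. Their summed level overlapped, at 2018 to 2055 CPM in CCI_KO libraries, against 2006 to 2112 CPM in CCI_WT libraries. The called gene was Sox10, a transcription factor of the Schwann cell and satellite glia lineage, with 86.7, 70.6 and 80.5 CPM in the CCI_KO libraries, against 99.5, 98.5, 102, 119 and 108 CPM in the CCI_WT libraries (−0.41 ± 0.08, edgeR adjusted p = 0.00713). Btc, betacellulin, a growth factor of repair Schwann cells, was not called (−1.17 ± 0.39, edgeR adjusted p = 0.261). Other called genes, chosen after their values were seen, were Ndrg1, which Schwann cells need to keep myelin (−0.40 ± 0.08, edgeR adjusted p = 0.0187), and the axon-glia adhesion molecule Cadm4 (−0.60 ± 0.12, edgeR adjusted p = 0.0187). The secreted BMP and Wnt antagonist Sostdc1 (−0.66) and the tetraspanins Cd81 (−0.38) and Cd151 (−0.42) fell too (edgeR adjusted p = 0.00425 to 0.00713). All 5 were without overlap.

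Satellite glia genes were called in both directions. Of 21 tested, 1 rose (Ptprz1, a receptor phosphatase), 1 fell (Sparc) and 19 were not called by edgeR, with a median of −0.14, while DESeq2 and limma-voom called 5 each. Ptprz1 had 62.3, 57.3 and 62.7 CPM in the CCI_KO libraries, against 49.7, 46.3, 50.7, 47.9 and 51.4 CPM in the CCI_WT libraries (0.30 ± 0.06, edgeR adjusted p = 0.0187), and the groups did not overlap. Apoe, the lipid carrier, ranged over 3537 to 3921 CPM in CCI_KO and 4073 to 4338 CPM in CCI_WT without overlap and was not called (−0.19 ± 0.05, edgeR adjusted p = 0.117). Fabp7 (−0.33), the endothelin receptor Ednrb (−0.32) and the aldolase Aldoc (0.29) were not called either (edgeR adjusted p = 0.109 to 0.578). The summed level was 8085 to 8243 CPM in CCI_KO libraries, against 9326 to 10320 CPM in CCI_WT libraries, without overlap.

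Tyrp1, a melanosome protein that melanocytes use to make pigment, had the largest fall of all genes that the naming rule takes in. Its level was 1, 3.61 and 1.33 CPM in the CCI_KO libraries and 17.3, 13.9, 15.4, 16 and 15.9 CPM in the CCI_WT libraries, far apart, with a log2 fold change of −3.00 ± 0.41, edgeR adjusted p = 0.00503. Of 4 tested melanocyte genes it was the only one called, while Pmel (log2 fold change −0.64), Mitf (−0.020) and Oca2 (0.67) were not. Further large falls came at low levels. Chrm1, a muscarinic acetylcholine receptor, had 0.591, 0.761 and 0.199 CPM in the CCI_KO libraries, against 1.49, 1.41, 2.15, 1.5 and 1.92 CPM in the CCI_WT libraries (−1.72 ± 0.38, edgeR adjusted p = 0.0248). Spon2, a secreted matrix protein, had 11.9, 8.37 and 9.37 CPM in the CCI_KO libraries, against 22.6, 21.9, 20.5, 16.3 and 27.6 CPM in the CCI_WT libraries (−1.14 ± 0.19, edgeR adjusted p = 0.00523). Myrfl, a relative of the myelin regulatory factor, fell to 1.05, 0.67 and 1.73 CPM in CCI_KO, against 4.01, 4.33, 3.97, 3.35 and 4.97 CPM in CCI_WT (−1.84 ± 0.34, edgeR adjusted p = 0.0074). The homeobox gene Cphx1 (−1.71), Magix (−1.38), the small GTPase Rab7b (−1.23) and the serpin Serpinb6b (−1.16) were also among the 15 largest falls (edgeR adjusted p = 0.0224 to 0.048). In each of these 7 genes the highest CCI_KO library was below the lowest CCI_WT library.

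Ptk2b (ENSMUSG00000059456, chromosome 14, 66386033 to 66518939, minus strand; GRCm39), a calcium-activated tyrosine kinase, had 53.1, 44.6 and 49.95 CPM in CCI_KO libraries 2, 3 and 4, against 31.3, 28, 30.4, 32 and 31.9 CPM in CCI_WT libraries 1 to 5. The groups were clearly apart and the log2 fold change was 0.68 ± 0.10, edgeR adjusted p = 0.00229, the smallest p among the higher genes. Gpr149, an orphan receptor, had 23.1, 21.5 and 26.1 CPM in the CCI_KO libraries, against 14.9, 15.5, 11.8, 13.6 and 15.6 CPM in the CCI_WT libraries (0.73 ± 0.12, edgeR adjusted p = 0.00462). Sstr2, a receptor for the inhibitory peptide somatostatin, had 12.8, 14 and 13.8 CPM in the CCI_KO libraries, against 9.48, 6.8, 10.1, 7.63 and 8.3 CPM in the CCI_WT libraries (0.68 ± 0.15, edgeR adjusted p = 0.0233). Zdhhc22, a palmitoyltransferase, had 38, 43.2 and 38 CPM in the CCI_KO libraries, against 22.1, 22.8, 33.4, 21.5 and 24.6 CPM in the CCI_WT libraries (0.68 ± 0.11, edgeR adjusted p = 0.00503). No CCI_WT library reached the lowest CCI_KO library in any of the 4.

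The largest rises were found at low levels. Rtl4, a gene derived from a retrotransposon, had 1, 2.23 and 2.31 CPM in the CCI_KO libraries, against 0.403, 0.174, 0.326, 0.37 and 0.506 CPM in the CCI_WT libraries (log2 fold change 2.36 ± 0.42, edgeR adjusted p = 0.00641). S100a7l2, a member of the S100 calcium-binding family, had 4.62, 8.61 and 6.89 CPM in the CCI_KO libraries, against 2.98, 2.3, 3.95, 1.72 and 2.3 CPM in the CCI_WT libraries (1.34 ± 0.28, edgeR adjusted p = 0.0187). Slc6a7, the proline transporter of neurons, had 2.79, 4.11 and 2.57 CPM in the CCI_KO libraries, against 1.78, 0.96, 0.979, 1.41 and 1.49 CPM in the CCI_WT libraries (1.25 ± 0.27, edgeR adjusted p = 0.0204). All 3 were free of overlap. Rassf9 ranged over 3.17 to 5.24 CPM in CCI_KO and 1.63 to 2.34 CPM in CCI_WT (1.04 ± 0.22, edgeR adjusted p = 0.0187), and the kinase Cdk18 over 12.1 to 15 CPM in CCI_KO and 5.83 to 8.42 CPM in CCI_WT (0.96 ± 0.20, edgeR adjusted p = 0.0228). The protocadherin Pcdhb5 (0.82), the secreted protein Creg2 (0.69), the glypican Gpc5 (0.62) and the lipase Abhd2 (0.57) rose less (edgeR adjusted p = 0.0167 to 0.0487). Pcdhb5 is 1 of a cluster of similar genes, so its counts can be shared with its neighbours. CCI_KO libraries were all above CCI_WT libraries in each of these genes, by a narrow margin in some, such as Abhd2 with 22.8 CPM in the lowest CCI_KO library and 21.5 CPM in the highest CCI_WT library.

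Of the ion channels and receptors, edgeR called only single members of each group. Asic3, an acid-sensing channel of sensory neurons, had 177, 169.5 and 142 CPM in the CCI_KO libraries, against 134, 118, 132, 125 and 129 CPM in the CCI_WT libraries (0.35 ± 0.07, edgeR adjusted p = 0.0192). Trpm2, a channel opened by oxidative stress, had 28.3, 30.8 and 32.5 CPM in the CCI_KO libraries, against 22.9, 21.9, 23.9, 23.8 and 22.9 CPM in the CCI_WT libraries (0.40 ± 0.09, edgeR adjusted p = 0.042). They were the 2 called of 37 tested sensory transduction channels, where 0 fell and the median was 0.019. Chrna7, a nicotinic acetylcholine receptor subunit, had 24.2, 21.7 and 21.9 CPM in the CCI_KO libraries, against 16.7, 12.7, 15.5, 17 and 14.2 CPM in the CCI_WT libraries (0.57 ± 0.12, edgeR adjusted p = 0.0187). With Chrm1, which fell, it was called among 33 tested excitatory receptors, and Sstr2 was the only call among 38 tested inhibitory and analgesic receptors. Of those 38, 31 had a positive log2 fold change (median 0.13). CCI_KO lay higher without overlap in 8 of them, beside 4.15% of all tested genes, and lower without overlap in 0. Of the 12 two-pore-domain, 65 other potassium, 14 sodium and 18 calcium channel genes tested, edgeR called 0 in either direction (1, 10, 1 and 1 at an unadjusted p under 0.05), at medians of 0.13, 0.1, 0.13 and 0.047. DESeq2 called 1, 1, 0 and 0 of them, and limma-voom 1, 3, 0 and 0. The summed level of the calcium channel genes was higher without overlap, at 839 to 855 CPM in CCI_KO libraries, against 782 to 814 CPM in CCI_WT libraries. That of the two-pore-domain genes, Kcnk1 included, was lower without overlap, at 189 to 212 CPM in CCI_KO libraries, against 215 to 228 CPM in CCI_WT libraries. The sums of the other potassium and the sodium channel genes overlapped. Relatives of Twik1 had log2 fold changes of 0.47 ± 0.38 (Kcnk2, TREK-1), 0.23 ± 0.13 (Kcnk13) and 0.21 ± 0.14 (Kcnk4), and none was called. The delayed rectifier Kcnb2 (0.28 ± 0.07, edgeR adjusted p = 0.0759) and the nociceptor channel Scn9a (0.20 ± 0.07, edgeR adjusted p = 0.287) came nearest in their groups, each without overlap.

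Further neuronal genes that rose, chosen here after their values were seen, changed by less than 2-fold. Nrxn3, a presynaptic adhesion protein, had 73.7, 70.3 and 74.6 CPM in the CCI_KO libraries, against 54.3, 48.8, 62.4, 52.2 and 49.8 CPM in the CCI_WT libraries (0.45 ± 0.08, edgeR adjusted p = 0.00503). Scg2, secretogranin of dense-core vesicles, had 543, 605 and 593 CPM in the CCI_KO libraries, against 438, 417, 489.9, 411 and 401 CPM in the CCI_WT libraries (0.43 ± 0.08, edgeR adjusted p = 0.00801). The kinase Prkcb, the calcium-binding proteins Necab1 and Mctp1 and the sorting receptor Sorl1 rose by log2 fold changes of 0.43, 0.37, 0.50 and 0.36 (edgeR adjusted p = 0.00641 to 0.0154). Map1b, a microtubule protein, Ppp3ca and Ppp2r1a, phosphatase subunits, and Pirt, a partner of the heat channel Trpv1, rose by 0.27, 0.25, 0.28 and 0.29 (edgeR adjusted p = 0.00742 to 0.0481). Plxna2, a semaphorin receptor, had 83.4, 76.3 and 81.8 CPM in the CCI_KO libraries, against 62.9, 54.7, 63.5, 54 and 54.3 CPM in the CCI_WT libraries (0.48 ± 0.09, edgeR adjusted p = 0.0081). All of these were higher in each CCI_KO library than in any CCI_WT library.

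Markers of sensory neurons as a class did not separate in the same way. Of 18 tested sensory neuron identity genes edgeR, DESeq2 and limma-voom called 0, with 2 at an unadjusted p under 0.05 (median 0.07), and their summed level was 21290 to 22880 CPM in CCI_KO libraries, against 20610 to 21540 CPM in CCI_WT libraries, which overlap. Drgx, a nociceptor transcription factor, had the smallest p (0.18 ± 0.08, edgeR adjusted p = 0.433). Among 16 tested genes of peptidergic nociceptors, which release peptides such as substance P, edgeR called 1 higher (Sstr2), 0 lower and 15 not. Of the 16, 14 had a positive log2 fold change (median 0.38). In 8 CCI_KO lay higher without overlap, beside 4.15% of all tested genes. DESeq2 and limma-voom called 3 each, edgeR without the low-count filter 4 and edgeR on the CCI libraries alone 5. Tac1, the substance P precursor, had 451, 643 and 574 CPM in the CCI_KO libraries, against 317, 316, 416, 263 and 298 CPM in the CCI_WT libraries, and was not called (0.79 ± 0.25, edgeR adjusted p = 0.256). Calca, the precursor of CGRP, ranged over 2405 to 3385 CPM in CCI_KO and 1607 to 2334 CPM in CCI_WT. Smr2 ranged over 10.5 to 16 CPM in CCI_KO and 4.83 to 6.68 CPM in CCI_WT. Both were free of overlap and not called (edgeR adjusted p = 0.314 and 0.099). The list's summed level overlapped, at 4400 to 5908 CPM in CCI_KO libraries, against 3290 to 4525 CPM in CCI_WT libraries. Nefh, the heavy neurofilament of large neurons, was not called (0.27 ± 0.16, edgeR adjusted p = 0.703). Among 21 non-peptidergic and itch genes, 8 genes of C-low-threshold mechanoreceptors, 21 genes of large myelinated neurons and 31 synaptic vesicle genes, edgeR called 0 (1, 3, 1 and 8 at an unadjusted p under 0.05), at medians of −0.059, −0.26, 0.10 and 0.11. DESeq2 called 0 in these 4 lists, and limma-voom called 1 synaptic vesicle gene. Of the 31 synaptic vesicle genes, 26 had a positive log2 fold change. CCI_KO lay higher without overlap in 7 of them, beside 4.15% of all tested genes. Their summed level did not overlap, at 9045 to 9136 CPM in CCI_KO libraries, against 8146 to 8826 CPM in CCI_WT libraries.

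Among the genes higher in CCI_KO than in CCI_WT were 2 clock-controlled genes. Ciart, a repressor of the circadian clock, had 8.57, 7.23 and 5.78 CPM in CCI_KO libraries 2, 3 and 4, against 2.46, 3.17, 4.14, 3.28 and 3.42 CPM in CCI_WT libraries 1 to 5. Dbp, a transcription factor that the clock switches on and off each day, had 18.8, 22.1 and 12 CPM in the CCI_KO libraries, against 8.38, 9.05, 10.3, 10.3 and 9.62 CPM in the CCI_WT libraries. Both sets were free of overlap, though CCI_KO library 4 came close to the wild-type values in Dbp, and the log2 fold changes were 1.13 ± 0.20 (edgeR adjusted p = 0.00689) and 0.88 ± 0.17 (edgeR adjusted p = 0.0155). Of 20 tested clock genes edgeR called these 2 higher, 0 lower and 18 not (median 0.24), while DESeq2 and limma-voom each called 5, namely Ciart, Dbp, Per1 and Tef higher and Bmal1 lower. Without the low-count filter edgeR called 7, and with the CCI libraries alone 6. Bmal1, the activator of the clock loop, had 5.3, 3.53 and 5.15 CPM in the CCI_KO libraries, against 11, 9.07, 6.6, 9.41 and 7.75 CPM in the CCI_WT libraries, lower without overlap, and was not called by edgeR (−0.91 ± 0.26, edgeR adjusted p = 0.129). The clock genes Per1, Per2 and Per3 had log2 fold changes of 0.76 ± 0.20, 0.35 ± 0.20 and 0.46 ± 0.18 (edgeR adjusted p = 0.0889, 0.678 and 0.372). Tef (0.29 ± 0.08), Nr1d1 (0.39 ± 0.16) and Nr1d2 (0.39 ± 0.12) were not called either (edgeR adjusted p = 0.128 to 0.456). Mean levels of Ciart were 7.2 CPM in CCI_KO, 3.3 in CCI_WT, 7.29 in Sham_KO and 9.59 in Sham_WT. Those of Dbp were 17.6, 9.54, 20.5 and 28.2 CPM in the same order. Both genes were thus higher in CCI_KO than in CCI_WT, but not higher than in either sham group. The part that the hour of collection may have in these values was not tested.

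The Ciart promoter is shown because the clock activator Bmal1 and its partner Clock bind the E-box CACGTG, which is the same on both strands. The RefSeq window (build GRCm38.p6, chr3:95882179-95882478, minus strand) holds it 3 times, in capitals, beginning at positions −116, −58 and −44 from the start site:
Ciart: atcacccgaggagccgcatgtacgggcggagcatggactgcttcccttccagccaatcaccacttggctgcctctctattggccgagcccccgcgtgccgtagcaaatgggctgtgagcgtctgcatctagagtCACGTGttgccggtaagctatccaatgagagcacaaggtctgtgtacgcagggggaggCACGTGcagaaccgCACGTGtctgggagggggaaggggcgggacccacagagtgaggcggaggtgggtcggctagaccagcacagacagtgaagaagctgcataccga
Of all 32851 windows, 7.15% hold CACGTG. By gene, 8.09% of 27025 genes have a window with it, and of the 18 clock genes with a window 5 do (Per1, Cry1, Tef, Ciart and Bhlhe41). The Dbp window holds none, which says only that these letters are not in it.

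**Figure D3:**
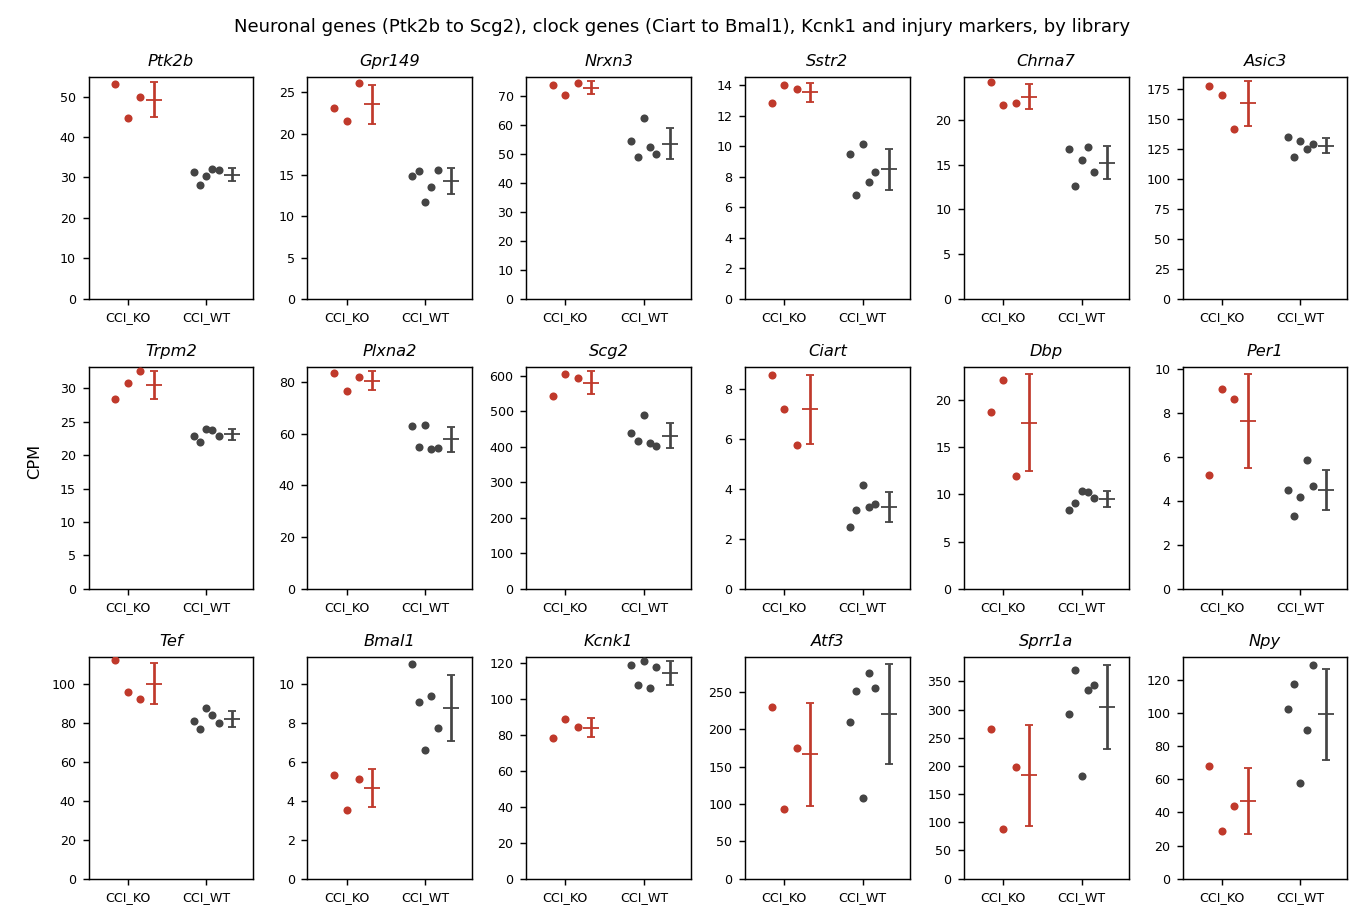
CPM in each library for 9 neuronal genes, 5 clock genes, Kcnk1 and 3 injury markers, with CCI_KO (3 points, red) left of CCI_WT (5 points, dark) and the mean ± SD beside the points. The groups separate from Ptk2b to Dbp and for Tef, Bmal1 and Kcnk1, but overlap for Per1, Atf3, Sprr1a and Npy, and in the 3 injury markers library 3 is the lowest of either group.

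Genes that mark the injury of sensory axons gave no call in the edgeR fit of all 17 libraries. Atf3, a stress-induced transcription factor, had 229.6, 93.8 and 175 CPM in CCI_KO libraries 2, 3 and 4, against 209.5, 251, 108, 276 and 256 CPM in CCI_WT libraries 1 to 5. Sprr1a, linked to axon regrowth, had 265, 87.8 and 198 CPM in the CCI_KO libraries, against 292, 371, 181, 334 and 344 CPM in the CCI_WT libraries. CCI_KO library 3 was the lowest of its group in both genes, CCI_WT library 3 was the lowest of the other, and the groups overlapped. The log2 fold changes were −0.40 ± 0.69 (edgeR adjusted p = 0.958) and −0.73 ± 0.97 (edgeR adjusted p = 0.942). The neuropeptides Npy (−1.08 ± 0.73, edgeR adjusted p = 0.784) and Gal (−0.55 ± 0.57, edgeR adjusted p = 0.908) and the growth factor Csf1 (−0.16 ± 0.37, edgeR adjusted p = 0.973) were not called either. Of 46 tested axon injury genes edgeR, DESeq2 and limma-voom called 0, with 2 at an unadjusted p under 0.05. With the CCI libraries alone edgeR called 2. Of the 46, 38 had a negative log2 fold change (median −0.29). The groups overlapped in the summed level, which was 6506 to 8264 CPM in CCI_KO libraries, against 6570 to 8247 CPM in CCI_WT libraries. Il1rap, a subunit of the interleukin-1 receptor, had the smallest p (−0.47 ± 0.14, edgeR adjusted p = 0.177). With wide errors such as that of Sprr1a, a missing call does not show equal levels. The errors come from the fit of all 17 libraries. There Sham_KO libraries 1 and 2 stood apart in the summed level of these genes.

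Immune genes gave no call by edgeR. Of 28 tested macrophage genes edgeR called 0, with 2 at an unadjusted p under 0.05, DESeq2 0 and limma-voom 1. Csf1r, the receptor that macrophages need to survive, was at −0.08 ± 0.22, edgeR adjusted p = 0.976. The summed level did not overlap, at 4310 to 4601 CPM in CCI_KO libraries, against 4939 to 5323 CPM in CCI_WT libraries. Of 32 tested interferon-stimulated genes edgeR, DESeq2 and limma-voom called 0, with 0 at an unadjusted p under 0.05, while 31 had a positive log2 fold change (median 0.44). Ifit1 had 70.9, 51.1 and 153 CPM in CCI_KO, against 47, 23.8, 20.9, 46.4 and 61.7 CPM in CCI_WT (log2 fold change 1.20 ± 0.86, edgeR adjusted p = 0.802). CCI_KO library 4 was the highest in Ifit1, in Rigi (0.61 ± 0.34, edgeR adjusted p = 0.689) and in Oasl2 (0.64 ± 0.36, edgeR adjusted p = 0.694). Among neutrophil (12), lymphocyte (17), antigen presentation (21), cytokine (34), endothelial and pericyte (26), BMP (22), cell cycle (20), adipocyte (10), red blood cell (7), bone and cartilage (11) and mitochondrially encoded (13) genes edgeR and DESeq2 called 0. At an unadjusted p under 0.05 these lists held 4 or fewer genes each, and limma-voom called 2 cytokine genes and 1 BMP gene. All 10 adipocyte genes had a positive log2 fold change (median 0.83), and 2 were higher without overlap, beside 4.15% of all tested genes. Of the 20 cell cycle genes, 19 had a negative one (median −0.45), and 0 were free of overlap. The summed levels of both lists overlapped between the groups. In the immediate early list (23 tested, 0 called by edgeR, DESeq2 or limma-voom, 5 at an unadjusted p under 0.05) Nr4a1 (−0.30 ± 0.09, edgeR adjusted p = 0.184) and Egr3 (−0.80 ± 0.26, edgeR adjusted p = 0.224) had the smallest p. Sox10 was the only edgeR call of 11 spinal cord genes, while DESeq2 and limma-voom called 2 each. The spinal cord marker Aqp4, a water channel, was higher without overlap but not called by edgeR (0.82 ± 0.21, edgeR adjusted p = 0.0809). Wdfy1 had 61.5 ± 16.6 CPM in CCI_KO and 83.1 ± 4.22 CPM in CCI_WT and was not called (−0.43 ± 0.38, edgeR adjusted p = 0.867).

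**Figure D4:**
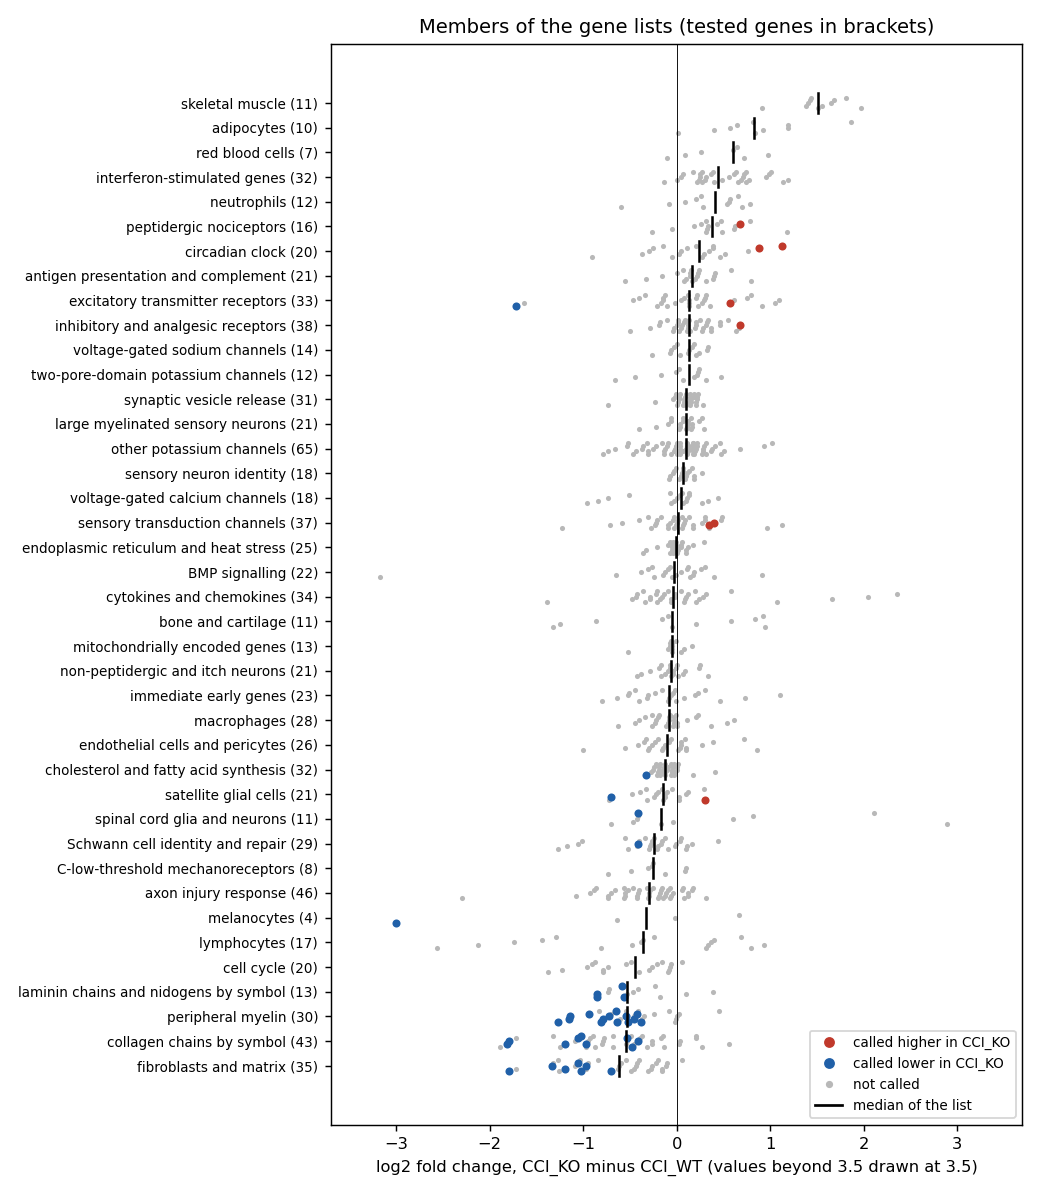
Log2 fold change (CCI_KO minus CCI_WT) of every tested member of 40 gene groups, sorted by the median (black bar), with called members in red (higher) or blue (lower) and others in grey; values beyond the axis are drawn at its edge. Blue points gather in the 4 lowest groups, the matrix, collagen, myelin and laminin lists with medians of −0.62 to −0.53, while the muscle list at the top has a median of 1.51 and no called member.

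The sham libraries, which share no sample with the CCI groups, give the same genotype contrast after the sham operation. Both comparisons take their spread from the same fit of all 17 libraries, so their calls are not independent of each other. In sham edgeR called 240 of 23972 genes (1%), 62 (0.259%) higher and 178 (0.743%) lower in Sham_KO. Of the 120 genes that fell after CCI, 120 had a negative log2 fold change in sham (median −0.44) and 64 were also called lower. Of the 44 that rose after CCI, 34 had a positive log2 fold change in sham, with a median of 0.084, and 4 were also called higher. Over all tested genes, 55.9% had the same sign in both. The genes called in the same direction in both comparisons, 68 in number, were 41.5% of the CCI calls and 28.3% of the sham calls, and 0 were called in opposite directions. Without Sham_KO libraries 1 and 2, edgeR called 37 genes in sham, the sign was shared by 120 of the 120 lower and 30 of the 44 higher genes, and 19 lower and 2 higher genes were called in both.

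Named matrix and myelin genes were also called lower in Sham_KO. Col4a1 was at −0.91 ± 0.10 in sham (edgeR adjusted p = 0.000137) beside −1.06 ± 0.11 after CCI. Pmp22 was at −1.03 ± 0.12 (edgeR adjusted p = 0.000542) beside −0.94 ± 0.13, and Tyrp1 at −2.15 ± 0.35 (edgeR adjusted p = 0.00906) beside −3.00 ± 0.41. In the peripheral myelin list 14 members fell in each operation, and in the fibroblast and matrix list 7 fell after CCI and 11 in sham. Without Sham_KO libraries 1 and 2 the sham counts were 5 and 2. The summed myelin level was 6459 to 8378 CPM in Sham_KO libraries, against 12470 to 17440 CPM in Sham_WT libraries, but the summed collagen level overlapped, since Sham_KO library 4 (1082 CPM) lay above Sham_WT libraries 2 and 5 (919 and 1050 CPM). Kcnk1 was at −0.50 ± 0.12 in sham (edgeR adjusted p = 0.0659), and at −0.29 ± 0.13 without Sham_KO libraries 1 and 2 (edgeR adjusted p = 0.62). Without Sham_KO libraries 1 and 2 the sham values were −0.93 ± 0.13 for Col4a1 and −2.72 ± 0.44 for Tyrp1 (edgeR adjusted p = 0.00934 and 0.0323). Pmp22 was then at −0.92 ± 0.15 in sham (edgeR adjusted p = 0.0402).

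Among the largest rises, Rtl4 (1.68 ± 0.38), S100a7l2 (1.78 ± 0.26) and Cdk18 (0.87 ± 0.19) were also called higher in sham (edgeR adjusted p = 0.000749 to 0.0262). Without Sham_KO libraries 1 and 2 they were at 1.41, 1.575 and 0.61, and of these only S100a7l2 was called (edgeR adjusted p = 0.0202). Slc6a7 was at −0.28 ± 0.25 in sham and not called. Several neuronal and clock genes had small or negative sham values. Ptk2b was at 0.19 ± 0.10 in sham, Plxna2 at −0.10 ± 0.08, Asic3 at −0.13 ± 0.07, Chrna7 at −0.05 ± 0.11, Ciart at −0.39 ± 0.19 and Dbp at −0.46 ± 0.16, none of them called there. Without Sham_KO libraries 1 and 2 the sham values were 0.26 for Ptk2b, 0.0077 for Plxna2, −0.065 for Asic3, −0.076 for Chrna7, −0.14 for Ciart and −0.18 for Dbp, again not called. The difference between the genotype effects after CCI and in sham was tested as an interaction, and edgeR called 0 of 23972 genes, with 1408 at an unadjusted p under 0.05, 46 of them among the 164. DESeq2 called 21, limma-voom 4 and edgeR without the low-count filter 77. Ciart, Dbp, Smad6 and Plxna2 were among the calls of all 3, at adjusted p = 0.000719, 6.64e-05, 0.000569 and 0.0294 by DESeq2 and 0.0338, 0.0343, 0.0338 and 0.0461 by limma-voom. The smallest edgeR adjusted p of the difference, 0.102, was shared by Ciart (1.52 ± 0.28), Dbp (1.34 ± 0.23) and Smad6 (2.29 ± 0.42), an inhibitor of BMP signalling that was itself not called after CCI (0.91 ± 0.30, edgeR adjusted p = 0.229). Asic3 (0.49 ± 0.10, edgeR adjusted p = 0.362) and Plxna2 (0.58 ± 0.12, edgeR adjusted p = 0.362) followed. Without Sham_KO libraries 1 and 2, edgeR called 0 differences, with 1317 at an unadjusted p under 0.05, and the differences were 1.27 for Ciart (edgeR adjusted p = 0.457), 1.07 for Dbp (edgeR adjusted p = 0.382) and 2.03 for Smad6 (edgeR adjusted p = 0.457). They were 0.42 for Asic3 and 0.47 for Plxna2 (edgeR adjusted p = 0.931 for both). The difference was not called for Col4a1 (−0.15 ± 0.15, edgeR adjusted p = 0.963) or Pmp22 (0.09 ± 0.17, edgeR adjusted p = 0.988). In the edgeR fit with the low-count filter, a call after CCI beside none in sham was not shown to be a difference for any gene. In the fits that left out a library, edgeR called the difference of Dbp without CCI_KO library 4, of Ciart and Smad6 without CCI_WT library 3, and of Ciart and Dbp without Sham_KO library 3.

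**Figure D5:**
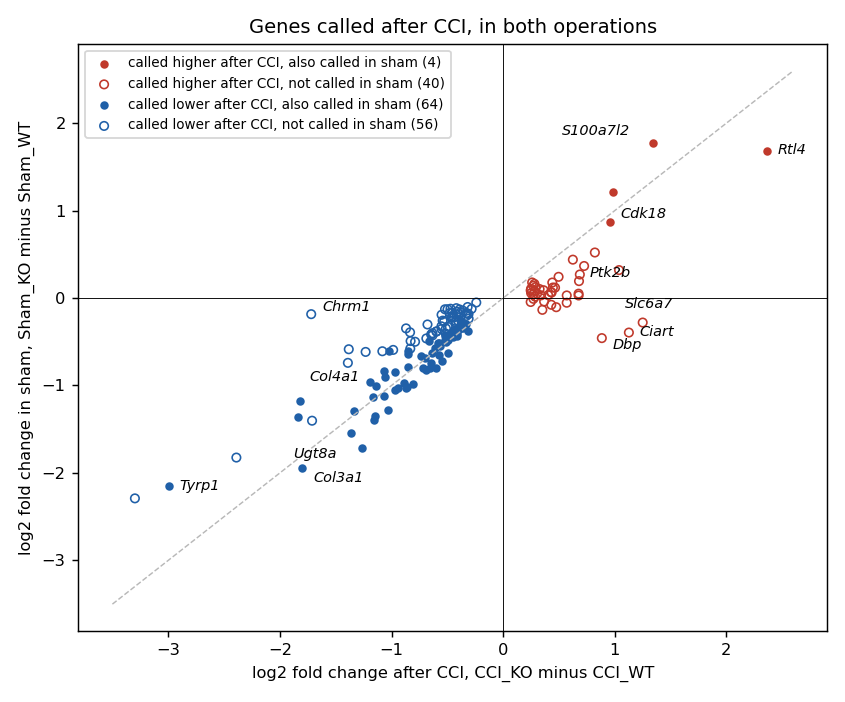
Log2 fold change after CCI (CCI_KO minus CCI_WT, horizontal) and in sham (Sham_KO minus Sham_WT, vertical) of the 164 genes called after CCI, filled where also called in sham, with a dashed line of equal effects. All 120 lower genes (blue) lie below a sham value of 0, some near the line and some off it. Chrm1, off the line, is at −1.72 after CCI and −0.18 in sham. Most of the 44 higher genes (red) lie near a sham value of 0, and Ciart and Dbp lie below 0.

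The number of calls rested on single libraries. Without CCI_KO library 3 edgeR called 18 genes, without CCI_KO library 4, 54, and without CCI_KO library 2, 91. Leaving out CCI_WT libraries 1, 2 or 5 gave 89, 104 or 73 calls. The myelin list had 2 lower calls without CCI_KO library 3, 4 without CCI_KO library 4, 8 without CCI_WT library 1 and 7 without CCI_WT library 5, and the fibroblast and matrix list had 3 without either CCI_KO library 3 or 4 and 4 without CCI_KO library 2. Without CCI_KO library 3 there were 4 collagen calls, 1 laminin or nidogen call and 0 clock calls, and without CCI_KO library 2 there were 5 collagen calls. The calls of Ciart and Dbp were both lost without CCI_KO library 2, where Per1 was called, and that of Dbp was lost without CCI_WT library 1. All 164 genes kept their direction in each of the 17 fits that left out a library. The call itself was kept in all 17 of those fits and in all 8 other settings tried by 13 genes, namely Ptk2b, Gpr149 and Nrxn3 among the higher and Col4a1, Col4a2, Col15a1, Col26a1, Nid1, Kdelr3, Cnp, Elovl1, Cd81 and Tyrp1 among the lower genes.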

How the data were processed

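RNA of mouse dorsal root ganglia was isolated with PicoPure and made into SMART-Seq v4 libraries, per the labels' protocols. Demultiplexing with bcl2fastq 2.20.0.422 and alignment with STAR 2.7.11a to GRCm39 are named in the submitters' processing notes. The counting tool, its annotation and strand setting were not given in the sources used here. Raw counts per gene were deposited by the authors, 1 table per library, with identifiers that were matched to GENCODE symbols for all but 130 of 78298 genes. Counts of reads with no feature (4.04 to 4.55%) or with ambiguous assignment (7.63 to 8.17%) stayed out of library sizes.

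From the deposited counts, edgeR 4.0.16 (R 4.3.3) was fitted with robust quasi-likelihood over all 17 libraries, 1 mean per group, TMM scaling and filterByExpr (minimum count 10, minimum total 15), which kept 23972 of 46200 genes with any count. Calls are Benjamini-Hochberg adjusted p under 0.05, and CPM use TMM-scaled library sizes. The fit has 13 residual degrees of freedom and a biological coefficient of variation of 0.346. On simulated counts of the CCI comparison (22967 genes fitted), it called 71 of 100 genes changed by a log2 of 1, 42 of 100 changed by 0.5 and 5 of 22767 unchanged genes. The changed genes were drawn from those with a mean of at least 1 CPM, so changes below that level were not simulated. The simulated spread was the one that the fit itself had estimated, and the groups were otherwise equal. Depth was similar in all 8 libraries, and counting error is small beside the spread between replicates, whose counts differed by 14.1 to 30.5 times the Poisson chi-square per degree of freedom, so no 2 libraries of a CCI group agreed within sampling noise.

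The members and the 38 gene lists (866 genes) were chosen with earlier results of these data known, and lists overlap. Genes named were Kcnk1, the 15 largest rises and 15 largest falls among called protein-coding genes of at least 1 CPM without overlap between the groups, up to 4 members of each list by p, a set of genes already known from earlier results, and further genes that were chosen after their values were seen. Genes most correlated with Kcnk1 are not described, because the groups separate on Kcnk1 and a pooled correlation would restate that. Some genes that the rule takes in are not reported here. Alternatives tried were other size factors, no or a stricter count filter, DESeq2 1.42.0, limma-voom (limma 3.58.1), the CCI libraries alone, the fit without Sham_KO libraries 1 and 2, a replicate block and leaving out each library.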

Additional observations from a re-analysis of the deposited data

Results flagged for a closer look

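Each of 130 named genes was checked in the 5 CCI_WT libraries for a library whose gap to its nearest neighbour exceeds 0.71 of the whole range, which chance gives in about 1 in 20 groups. The check picked out 10 genes. CCI_WT library 5 was far above the others of its group in Col4a2 (83.8 CPM, next 67.8 CPM), Col1a2 (342.5 CPM, next 242 CPM), Lamb2 (53.7 CPM, next 40.2 CPM) and Magix (4.23 CPM, next 3.13 CPM). CCI_WT library 3 was far above in Zdhhc22 (33.4 CPM, next 24.6 CPM), Ppp3ca (846 CPM, next 764.5 CPM) and Drgx (193 CPM, next 171 CPM) and far below in Csf1r (13.5 CPM, next 26.1 CPM). CCI_WT library 2 was far below in Pcdhb5 (2.27 CPM, next 3.98 CPM) and Egr3 (2.62 CPM, next 4.91 CPM). The 3 CCI_KO libraries are too few for this check.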

How the results depend on the processing

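The count of genes called after CCI was 164, and it was also 164 with DESeq2 size factors and 175 with a stricter filter. It moved to 452 with no low-count filter, 405 by DESeq2, 439 by limma-voom and 407 with the CCI libraries alone, where 59.2% of calls were lower in CCI_KO, against 73.2% in the fit of all 17 libraries. All 164 genes kept their sign in each of these settings, except 1 gene that the stricter filter did not test. Without Sham_KO libraries 1 and 2 there were 222 calls, 162 of the 164 among them. The sham count of 240 moved to 702 with no filter, 629 by DESeq2 and 37 without Sham_KO libraries 1 and 2. The count of 0 differences moved to 77, 21 and 4 with no filter, DESeq2 and limma-voom. Leaving out 1 library gave 18 to 229 calls after CCI, 88 to 665 in sham and 0 to 7 for the difference. The 7 came without Sham_KO library 3, 4 without CCI_WT library 3 and 1 without CCI_KO library 4. Same-numbered CCI libraries deviated together weakly (r = 0.0093, 0.060 and 0.014), and 1 of the 3 CCI_KO libraries correlated best with its own number. Pairs of unlike number ranged over −0.038 to 0.027. The 3 same-numbered pairs are too few to tell whether the libraries are paired by number. With the replicate block the calls were 91 after CCI, 82 of them among the 164, and 139 in sham. Among single uncalled genes, leaving out 1 library moved Csf1 over −0.31 to 0.032 and Ddx3y over −0.068 to 0.0099, with the sign reversed without CCI_KO library 3 for both and without CCI_WT library 5 for Ddx3y (0.0020). The cause was not tested for any of these moves. With 3 libraries in CCI_KO, changes of less than 2-fold are often missed at this sample size, and some of 2-fold are missed too. Depth is not the limit for genes above a few CPM.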
